A study of Mus musculus with 10 samples.

Results

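The adventitia is the outer coat of an artery, made of fibroblasts, progenitor cells, immune cells and nerves in loose collagen. The genes described here are Ackr3, Thy1, Pi16, Cd34, Ly6a, Dpt, Gli1, Clec3b, Gpc3 and Dpep1, 10 genes chosen because they are known to mark adventitial fibroblasts and the progenitor cells among them. A probe annotated to the gene alone was found for 9 of the 10, by symbol or Entrez identifier, and these are 9 of the 17991 genes measured. Ly6a, the surface protein also called Sca-1, was not analysed here. Each of the 9 had 1 probe, with a value above the lowest recorded intensities on all 10 arrays.

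All groups were male ApoE-/- mice, 14 weeks old, a strain without apolipoprotein E whose blood cholesterol is high and whose arteries form plaques. The aortas of 2 mice were pooled, and the abdominal aorta of each of 5 pools, numbered 1, 6, 8, 11 and 12, was divided into an infrarenal section below the kidney arteries and a suprarenal section above them. RNA of each section was read on 1 array in a single colour, giving 5 infrarenal and 5 suprarenal arrays of 36227 probes. Mice with intact Apoe were not analysed here, the knockout is shared by both groups, and each array averages 2 animals. Intensities are given on the log2 scale, on which 0 is about the median probe of an array, and a regional difference is infrarenal minus suprarenal within a pool. The levels of different probes are not compared, because a probe's brightness depends on the probe as well as on the RNA.

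Fibroblasts of the adventitia secrete and remodel the outer matrix and send signals to the muscle layer and to immune cells. Some of them, marked by Pi16, Cd34, Ly6a and Dpt, are found as progenitor-like fibroblasts around vessels in many mouse tissues, and cells marked by Gli1 can give rise to other cells of the vessel wall after injury. The listed proteins have different jobs. Thy1, Ly6a, Gpc3 and Dpep1 are held on the cell surface by a lipid (GPI) anchor, Ackr3 and Cd34 span the membrane, Dpt and Clec3b are secreted and Gli1 acts in the nucleus. None of the genes is limited to fibroblasts: Cd34 is also an endothelial gene, Thy1 is also made by T cells and neurons, and Dpep1 by kidney tubules.

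The arrays gave values for the tissue and cell type that the labels and the list name. All 9 smooth muscle markers were measured, with list means between 6.53 and 6.83 log2 units on the 10 arrays. Of 22 other fibroblast matrix and surface genes, 20 had a probe, and none of these was on any array at the floor, the intensity of 0.0278 to which lower values were raised. Their list mean lay between 5.18 and 5.55. In pool 12 the list of Hox genes ran against the region labels. Hox genes of paralogue groups 9 to 13, which mark the rear of the body, had a list mean of 0.064 on infrarenal array 12 and 0.69 to 0.93 on the other infrarenal arrays, while suprarenal array 12 read 0.95 and the other suprarenal arrays 0.046 to 0.62. Over all pools 8 of these 13 Hox genes were higher and 5 lower in infrarenal aorta, and 2 were at the floor on some array. Because of the Hox values, results without pool 12 are given beside each member's result.

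The promoters of Gpc3 and Ackr3, which had the largest regional differences of the list, and of Dpep1, whose difference was nearest to 0, are shown to let the genes be compared by sequence. The RefSeq promoter table of build GRCm38.p6 held 6 of the 10 genes, Ackr3, Pi16, Cd34, Dpt, Gpc3 and Dpep1. The 250 bases before each annotated start are printed 5′ to 3′ on the gene's strand. Capitals mark motif matches on either strand. The TATA box was searched as TATAAA. The GC box was searched as GGGCGG. The CCAAT box was searched as those letters. The core of the site that GLI factors bind was searched as GACCACCC. No matches in the printed windows overlap.
Gpc3, chrX:52613975-52614224, minus strand: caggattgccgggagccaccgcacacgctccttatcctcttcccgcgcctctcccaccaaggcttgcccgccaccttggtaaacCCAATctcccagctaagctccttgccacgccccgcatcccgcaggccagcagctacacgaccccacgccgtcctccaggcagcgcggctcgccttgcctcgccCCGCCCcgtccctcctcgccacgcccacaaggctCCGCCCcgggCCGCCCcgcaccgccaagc
Ackr3, chr1:90203730-90203979, plus strand: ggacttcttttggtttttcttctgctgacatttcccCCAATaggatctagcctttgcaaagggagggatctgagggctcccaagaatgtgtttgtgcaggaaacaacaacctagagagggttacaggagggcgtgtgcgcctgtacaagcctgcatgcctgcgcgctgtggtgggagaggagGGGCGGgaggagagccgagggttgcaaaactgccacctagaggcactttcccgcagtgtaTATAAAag
Dpep1, chr8:123185985-123186234, plus strand: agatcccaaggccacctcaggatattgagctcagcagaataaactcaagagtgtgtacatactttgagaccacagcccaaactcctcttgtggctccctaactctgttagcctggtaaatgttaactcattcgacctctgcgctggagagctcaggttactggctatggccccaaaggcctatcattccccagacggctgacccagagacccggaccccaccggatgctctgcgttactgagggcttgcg

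The Gpc3 window had a GC content of 71.6%, with 25 CpG dinucleotides, 3 GC boxes on the opposite strand and 1 CCAAT box. The Ackr3 window had 54.0% and 7 CpG, with 1 GC box, 1 CCAAT box and a TATAAA that began 8 bases before the annotated start. The Dpep1 window had 53.6% and 7 CpG, and none of the 4 motifs. The median over all 32851 promoters in the table was 52.4% and 6 CpG. A GC box was found in 2 of the 6 windows, against 32.7% of all promoters. A CCAAT box was found in 3 (33.8% of all), TATAAA in 1 (12.4%) and the GLI core in 0 (0.7%). A match of letters is a description and not a bound site.

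The comparison asked whether genes of the outer coat differ in expression between the infrarenal and suprarenal aorta of the same mice. Gpc3, Ackr3 and Thy1 read lowest in infrarenal relative to suprarenal aorta, by 0.29 to 0.36 log2 units. Dpt, Clec3b and Dpep1, in contrast, had mean differences between -0.056 and -0.0029. No member passed limma's test after adjustment over all probes, so these are measured values and not called changes. At an adjusted p under 0.05 limma called 0 of the 9 members and 0 of 36061 probes (0%). At an unadjusted p under 0.05, 3 of the 9 were lower, where 4.51% of all probes were lower, and 0 were higher, where 3.05% of all probes were higher. These shares include dim probes, while all 9 members lie in the brightest 30%. With the dimmest 30% of probes left out, 3 members were lower at the same limit, beside 1519 lower and 617 higher of 25242 probes. After quantile normalization of the arrays 0 of the 9 were past that limit in either direction, and over all probes 929 were lower and 1132 higher, in place of 1625 lower and 1101 higher. Less RNA per cell and fewer fibroblasts in a section cannot be told apart in such bulk samples.

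**Figure D1:**
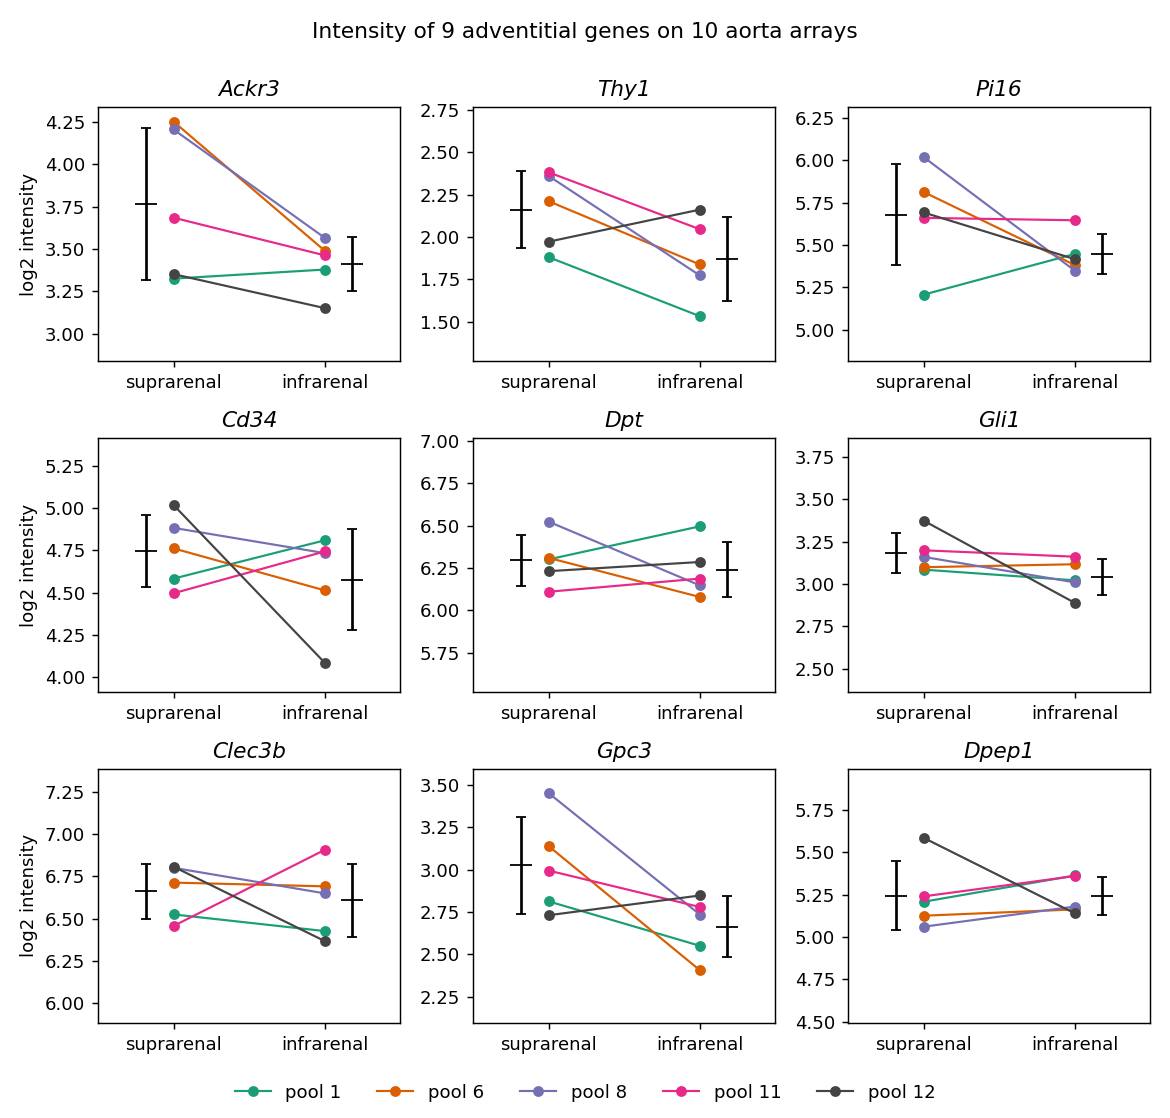
Log2 intensity of the 9 measured genes on the suprarenal and infrarenal arrays, 1 panel per gene, each panel spanning the same range. Lines join the sections of a pool, and the black marks beside them give the mean and SD of 5 arrays. Suprarenal arrays 6 and 8 stand highest for Ackr3 and Gpc3, and pool 12 slopes the opposite way to the other 4 pools for Thy1, Gpc3 and Dpep1.

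Ackr3 encodes an atypical receptor that binds the chemokine CXCL12 and removes it without classical G protein signalling. On the infrarenal arrays of pools 1, 6, 8, 11 and 12 it read 3.38, 3.49, 3.57, 3.46 and 3.15. On the suprarenal arrays of the same pools it read 3.32, 4.25, 4.21, 3.68 and 3.35. Suprarenal arrays 6 and 8 were high and the other 3 suprarenal arrays lay among or next to the infrarenal ones, so the groups overlapped. The means were 3.41 ± 0.16 and 3.76 ± 0.45 (SD, n = 5 each), a difference of -0.35 ± 0.13 (SE, n = 5 pools), or 0.782 times the suprarenal level, with a 95% interval of -0.65 to -0.062 and an adjusted p of 0.639 by limma. The sign was negative in 4 of 5 pools, with pool 1 at 0.054. The SE and interval are limma's, with a variance drawn towards that of probes of similar intensity. The plain SD of the 5 pool differences was 0.34 for Ackr3, 0.36 for Gpc3 and 0.29 for Thy1. The difference was -0.39 without pool 12, -0.25 without pool 6 and -0.25 after quantile normalization.

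Gpc3, a heparan sulphate proteoglycan of the cell surface that binds Hedgehog ligands, followed the same arrays. It read 2.55, 2.41, 2.73, 2.78 and 2.85 in infrarenal and 2.81, 3.14, 3.45, 2.99 and 2.73 in suprarenal aorta of pools 1, 6, 8, 11 and 12. The groups overlapped only through pool 12, whose suprarenal array was the lowest and whose infrarenal array was the highest of its group. The difference was -0.36 ± 0.13 (SE, n = 5 pools), or 0.778 times the suprarenal level, with an interval of -0.67 to -0.051 and an adjusted p of 0.639. Without pool 12 it was -0.48, with an adjusted p of 0.384, and after quantile normalization -0.28.

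Thy1, or CD90, a surface glycoprotein used to identify fibroblasts, read 1.53, 1.84, 1.77, 2.05 and 2.16 in infrarenal aorta. The suprarenal values were 1.88, 2.21, 2.36, 2.38 and 1.97. In pools 1, 6, 8 and 11 the infrarenal section was lower, with differences of -0.35, -0.37, -0.59 and -0.34. Pool 12, in contrast, differed by 0.19. The mean difference was -0.29 ± 0.12 (SE, n = 5 pools), with an interval of -0.56 to -0.018 and an adjusted p of 0.639. Without pool 12 it was -0.41 ± 0.096, still not past the threshold (adjusted p = 0.384), and after quantile normalization -0.22. Without pool 8 it was -0.22 ± 0.13. Because Thy1 is also a T cell and nerve gene, markers of those cells were set beside it. The lymphocyte list, 7 of 9 measured, had means of 0.091 to 0.66 in infrarenal and 0.20 to 0.77 in suprarenal aorta, with no marker at the floor. The sympathetic neuron list, 7 of 8 measured, had means of 0.999 to 2.41 and 0.86 to 3.38, with 1 marker at the floor on some array. In pools 1, 6, 8, 11 and 12 the lymphocyte list differed by -0.10, 0.36, -0.68, -0.23 and 0.46. The sympathetic neuron list differed by -2.37, -0.31, 1.28, -1.29 and 1.48 in the same pools. The part of these cells in the Thy1 values was not tested.

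**Figure D2:**
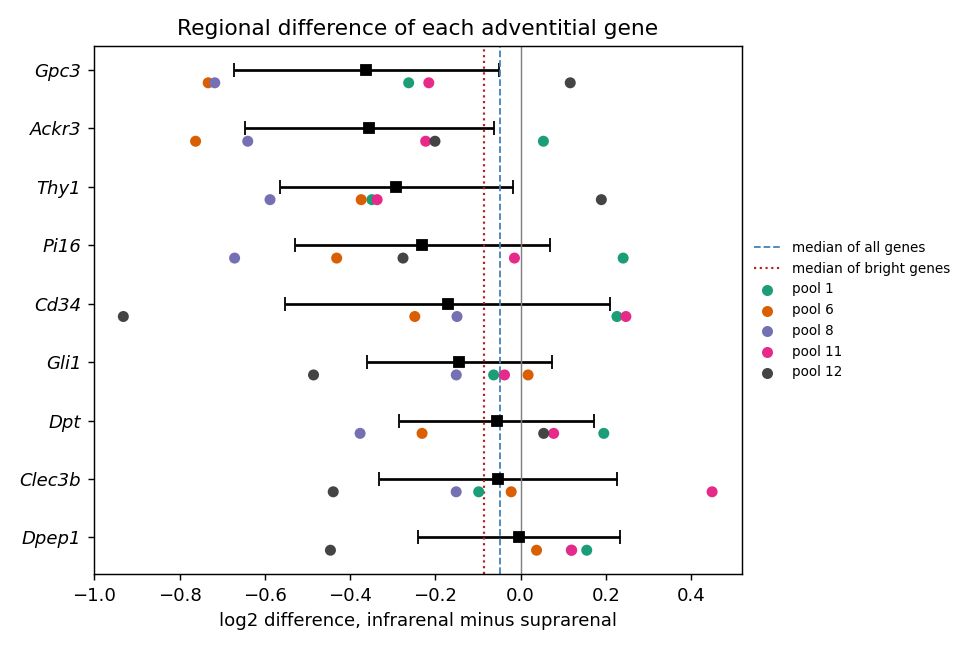
Regional difference of each gene, infrarenal minus suprarenal in log2 units. Squares and bars give the estimate and its 95% interval from limma, coloured points the 5 pools, and vertical lines the medians of all genes and of genes in the brightest 30% of probes. The unadjusted intervals of Gpc3, Ackr3 and Thy1 lie below 0. With no variance trend in limma, 0 members had an unadjusted p under 0.05. The points of pool 12 lie at the right end for Gpc3 and Thy1 and at the left end for Cd34, Gli1, Clec3b and Dpep1.

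The progenitor genes Pi16, Cd34 and Gli1 had smaller differences. Pi16, which encodes a secreted peptidase inhibitor and labels a fibroblast reservoir, read 5.45, 5.38, 5.35, 5.65 and 5.42 in infrarenal and 5.21, 5.81, 6.02, 5.66 and 5.69 in suprarenal aorta. Suprarenal arrays 6 and 8 were again the highest, and suprarenal array 1 was the lowest of all 10. The difference was -0.23 ± 0.13 (SE, n = 5 pools; interval -0.53 to 0.069; adjusted p = 0.656 by limma), with -0.22 without pool 12, -0.35 without pool 1, -0.12 without pool 8 and -0.12 after quantile normalization.

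Cd34, a sialomucin of progenitor and endothelial cells, differed in opposite directions among the pools. Its infrarenal values were 4.81, 4.51, 4.73, 4.74 and 4.09, and its suprarenal values 4.58, 4.76, 4.88, 4.50 and 5.02. Pool 12 held both the lowest and the highest of the 10, a difference of -0.93, while the other pools lay between -0.25 and 0.25. The mean of -0.17 ± 0.17 (SE; adjusted p = 0.761) became 0.019 ± 0.11 without that pool, and -0.047 after quantile normalization. The blood endothelial list, with all 10 markers measured and none at the floor, also had its most negative pool difference in pool 12, at -0.40, with the other pools between -0.18 and 0.18. This was not particular to the endothelial list. Pool 12 was also the most negative pool of the smooth muscle (-0.14), lymphatic (-0.35), macrophage (-0.64) and other fibroblast matrix and surface (-0.24) lists. It was positive for others, such as the adipocyte (0.57) and lymphocyte (0.46) lists. The part of endothelial cells in the Cd34 values was not tested.

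Gli1, the transcription factor and target of Hedgehog signalling, varied little among arrays, with an SD of 0.11 in infrarenal and 0.12 in suprarenal aorta (n = 5 each). It ranged from 2.89 to 3.16 in infrarenal and from 3.09 to 3.37 in suprarenal aorta, with a difference of -0.14 ± 0.094 (SE, n = 5 pools; interval -0.36 to 0.073; adjusted p = 0.674). Pool 12 contributed -0.49, and the other pools lay between -0.15 and 0.018. The difference was -0.059 without pool 12 and -0.055 after quantile normalization.

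The secreted matrix proteins of the list are Dpt and Clec3b, and their genes had regional means within 0.1 log2 units of each other. Dpt encodes dermatopontin, which binds decorin and helps collagen fibrils form. It ranged from 6.08 to 6.50 in infrarenal and from 6.11 to 6.52 in suprarenal aorta, with a difference of -0.056 ± 0.099 (SE; interval -0.29 to 0.17; adjusted p = 0.878), negative in pools 6 and 8 and positive in the other 3. Clec3b encodes tetranectin, a secreted lectin that binds plasminogen. It ranged from 6.37 to 6.91 and from 6.46 to 6.81, with a difference of -0.052 ± 0.12 (SE; interval -0.33 to 0.23; adjusted p = 0.911). Pools 11 and 12 were opposed for Clec3b, at 0.45 and -0.44. Without pool 12 the differences were -0.084 for Dpt and 0.045 for Clec3b.

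Dpep1, a membrane dipeptidase that also cleaves a leukotriene, read 5.36, 5.16, 5.18, 5.36 and 5.14 in infrarenal and 5.21, 5.13, 5.06, 5.24 and 5.59 in suprarenal aorta. It was higher in infrarenal aorta in 4 of 5 pools, by 0.037 to 0.16, and pool 12 differed by -0.45, so that the mean difference was -0.0029 ± 0.10 (SE; interval -0.24 to 0.23; adjusted p = 0.995). Without pool 12 it was 0.11 ± 0.078 (adjusted p = 0.636). The 4 kidney tubule and podocyte markers measured, of 6 listed, had dim list means of -2.05 to -1.54 in infrarenal and -2.49 to -1.82 in suprarenal aorta, with pool differences from -0.19 in pool 8 to 0.71 in pool 6 and 0.46 in pool 12. Their part in the Dpep1 values was not tested.

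As a list, all 9 genes had negative mean differences, with a median of -0.17, 6 of 9 after quantile normalization and 6 of 9 without pool 12. Over all genes 60.4% were negative with a median of -0.049, and among the 7505 genes in the brightest 30% of probes, where all 9 members lie, 5627 were negative, with a median of -0.086. After quantile normalization the bright genes were negative in 45.4% of cases with a median of 0.014, and the median of the members was -0.055, with Dpt, Clec3b and Dpep1 turned to 0.092, 0.090 and 0.11. No member had the same sign in all 5 pools, which 9.1% of all probes did, and no member had regions that did not overlap, which 1.33% of all probes had. By pool, the median of the 9 differences was 0.054 in pool 1, -0.25 in pool 6, -0.38 in pool 8, -0.014 in pool 11 and -0.28 in pool 12. The median over all genes was 0.026, -0.026, -0.10, -0.048 and -0.060 in the same pools. In the same order 4, 7, 8, 5 and 6 of the 9 members were lower in infrarenal aorta. Over all genes 45.9%, 52.6%, 62.7%, 56.1% and 56.6% were lower.

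The members did not share 1 pattern over the pools. Ackr3, Gpc3, Pi16 and Thy1 had their most negative differences in pools 6 and 8, and so did Dpt on a smaller scale. Cd34, Gli1, Clec3b and Dpep1 had theirs in pool 12. Thy1 and Gpc3 were both negative in the pools other than 12. For Thy1, pools 1, 6 and 11 lay close together, at -0.35, -0.37 and -0.34. Over the 10 arrays, which are paired by pool and so are not independent, the genes whose values were most like the centred mean of the 9 members among 13954 candidates were Rpn1, Rnf185, Cops8, Cstf2t and Mrps17, with Pearson's r between 0.943 and 0.963. Rpn1 encodes a ribophorin of the oligosaccharyltransferase and differed by -0.28 ± 0.080 (SE, n = 5 pools), lower in 5 of 5 pools, and Mrps17, of the mitochondrial ribosome, by -0.19 ± 0.090. Both had an adjusted p of 0.639 by limma. These genes were picked for following the members over the same arrays, so their regional differences are not a separate result. Their r values are the highest of the 13954 and were not tested.

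**Figure D3:**
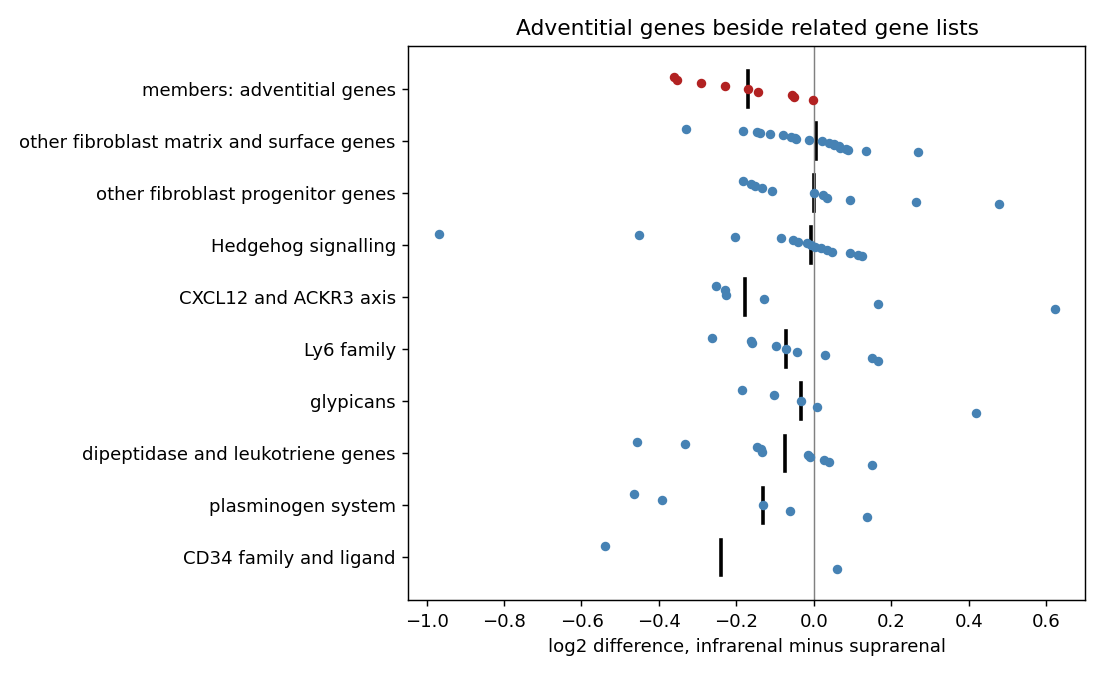
Regional differences of the 9 genes and of related lists, infrarenal minus suprarenal in log2 units. Each point is a gene and each black bar the median of its list. All 9 adventitial genes lie below 0 (6 of 9 after quantile normalization), while the other fibroblast, progenitor and Hedgehog lists lie on both sides of it.

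Other fibroblast genes lay on both sides of 0. Of the 20 matrix and surface genes measured, 10 were lower and 10 higher in infrarenal aorta, with a median of 0.0044, and 0 passed after adjustment. Fn1, fibronectin, differed by 0.27 ± 0.10 (SE) and was higher in 4 of 5 pools, and Fstl1, a secreted glycoprotein, by -0.33 ± 0.16. Of 11 other progenitor genes measured out of 12, 5 were lower and 6 higher, with a median of 0.0015, and 0 passed. Kit, the stem cell factor receptor that is also a mast cell gene, differed by 0.48 ± 0.21 and Nt5e, a surface nucleotidase, by 0.27 ± 0.22. No difference between these lists and the 9 genes was tested.

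Hedgehog genes, the pathway of Gli1 and Gpc3, gave 8 lower and 7 higher of 15 measured out of 16, with a median of -0.0062 and 0 past the threshold. Sufu, which restrains GLI factors, differed by -0.45 ± 0.24 (SE), and the ligand gene Shh by -0.97 ± 0.74, with 2 of its 10 values at the floor. Ptch1, the receptor and itself a target of GLI factors, was named after its value was seen. It read 4.45 ± 0.23 in infrarenal and 4.49 ± 0.26 in suprarenal aorta (SD, n = 5 each), a difference of -0.041 ± 0.078 (SE). The other glypicans gave 3 lower and 2 higher of 5, with Gpc4 at -0.19 ± 0.12 and Gpc5 at 0.42 ± 0.28.

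In the chemokine axis of Ackr3, 4 of 6 genes were lower, with a median of -0.18 and 0 past the threshold. The ligand gene Cxcl12 read 5.25 ± 0.23 in infrarenal and 5.51 ± 0.16 in suprarenal aorta (SD, n = 5 each), a difference of -0.25 ± 0.14 (SE, n = 5 pools; adjusted p = 0.651), lower in 4 of 5 pools. Arrb2, an arrestin that ACKR3 recruits, differed by -0.23 ± 0.10 and was lower in 5 of 5 pools (adjusted p = 0.639).

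Around the remaining members, 6 of 9 measured Ly6 family genes were lower, with a median of -0.072, Psca at -0.16 ± 0.093 and Ly6f at 0.17 ± 0.13 (SE). Of 10 dipeptidase and leukotriene genes, 7 were lower, with a median of -0.075, the leukotriene-forming Alox5 at -0.33 ± 0.16 and Anpep, a surface aminopeptidase, at -0.13 ± 0.074. Of 5 plasminogen genes, 4 were lower, with a median of -0.13. Plat, tissue plasminogen activator, differed by -0.39 ± 0.15 and was lower in 5 of 5 pools. Plg differed by -0.46 ± 0.35, with dim means of -3.13 in infrarenal and -2.67 in suprarenal aorta. Podxl, a sialomucin related to CD34, differed by -0.54 ± 0.18, also lower in 5 of 5 pools, and Podxl2 by 0.060 ± 0.12. None of these passed.

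**Figure D4:**
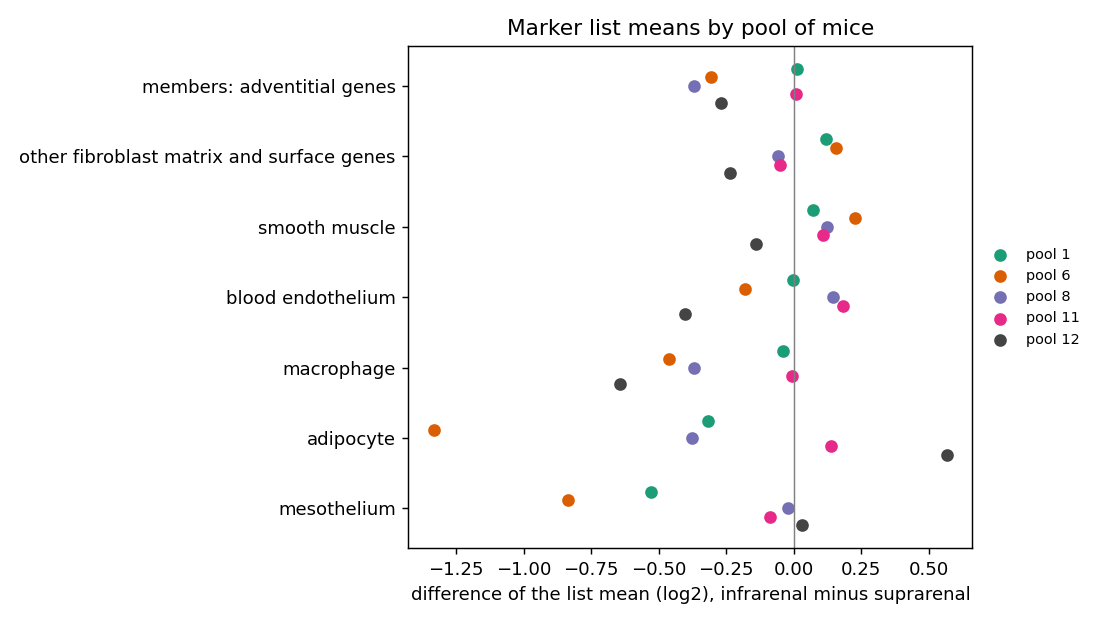
Difference of the mean log2 intensity of each marker list between the regions, infrarenal minus suprarenal, with 1 point per pool. For the 9 adventitial genes and for the macrophage list, pools 6, 8 and 12 lie below -0.25 and pools 1 and 11 lie near 0.

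Markers of other cells in and around the wall were set beside the list. The 9 members had mean differences of 0.011, -0.31, -0.37, 0.0075 and -0.27 in pools 1, 6, 8, 11 and 12. The macrophage list, with 7 of 9 markers measured, 6 of them lower and none at the floor, had differences of -0.041, -0.46, -0.37, -0.0053 and -0.64 in the same pools. Its list means were 3.36 to 3.58 in infrarenal and 3.55 to 4.04 in suprarenal aorta, with C1qc at -0.42 ± 0.094 and C1qb at -0.33 ± 0.085 (SE). Neither gene passed after adjustment (adjusted p = 0.639 by limma for each). Adipocyte markers, 7 of 9 measured and all 7 lower, had list means of 3.67 to 4.27 and 3.71 to 5.0, with differences of -1.33 in pool 6 and 0.57 in pool 12, and 1 marker, Lipe, at the floor on 1 array.

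Mesothelial markers, which belong to the lining cells around the vessel, had dim list means of -1.44 to -1.19 in infrarenal and -1.36 to -0.54 in suprarenal aorta. Of 7 measured out of 8, 6 were lower, with a median of -0.18, and 0 passed after adjustment. Msln, a defining marker, differed by -1.25 ± 0.57 (SE), lower in 3 of 5 pools. Upk3b, at the floor on 1 array, differed by -0.94 ± 0.59. Both were near the log2 floor of -5.17, with infrarenal means of -3.96 and -4.15. The brighter Upk1b, at 2.64 in infrarenal aorta, differed by -0.055 ± 0.10, and Krt8, the 1 higher marker, by 0.49 ± 0.45. Smooth muscle markers were lower in 3 and higher in 6 of 9 cases, with Lmod1 at 0.26 ± 0.12 and Smtn at 0.15 ± 0.073. The part of these cells in the values of the adventitial genes was not tested.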

How the data were processed

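The authors deposited linear intensities, 1 column per array, scaled to an array median between 1.001 and 1.003 as read from the values. Per the labels' protocols, RNA of the artery segments (0.34 to 0.54 µg) was made into cRNA carrying biotin, which Cy5-streptavidin stained. The methods of background correction and scaling were not given in the sources used here.

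Intensities below 0.0278 (percentile 1 of positive values) were raised to that floor and log2 was taken. A probe needed 3 values per region, which left 36061 of 36227. Symbols came from the platform annotation, updated by Entrez identifier with RefSeq's GRCm38.p6 table (1 symbol for 21615 probes, several for 681, none for 13931). The probe of highest mean stood for a gene.

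Regions were compared with limma 3.58.1 (R 4.3.3, lmFit and eBayes with a variance trend). The SE and 95% intervals of differences are limma's, with each probe's variance drawn towards that of probes of similar intensity. The pool was a block, since both sections come from the same mice. Two-sided p-values were adjusted across every tested probe (Benjamini-Hochberg, threshold 0.05). The 2 arrays of a pool deviated from the region means with correlations of -0.092 to 0.045. Precision is limited by having 5 pools, with a median unadjusted 95% half-width of 0.28 log2 units over the members. The scripts were tested on simulated data. Members and lists were chosen with earlier results of these data known. The text names all members, the 2 genes of smallest p per list, and the 5 genes most like the members. Of the lists written down, brown adipocyte, skeletal muscle, Schwann cell, lymphatic and erythroid markers are given in the closing section.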

Additional observations from a re-analysis of the deposited data

How the results depend on the processing

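Under the 13 alternatives no member passed the threshold, and the number of members with negative differences lay between 6 and 9. Their median ranged from -0.28 to -0.055 over the alternatives, and from -0.28 to -0.084 with single pools left out. Quantile normalization called 1 probe, which is no member. Gpc3, Ackr3, Thy1, Pi16 and Gli1 kept their sign under all 13. The sign turned for Dpt (0.092), Clec3b (0.090) and Dpep1 (0.11) after quantile normalization, for Cd34, Clec3b and Dpep1 without pool 12, for Dpt without pool 8 and for Dpep1 with array weights (0.026). With single pools left out the differences ranged from -0.28 to 0.019 for Cd34, from -0.18 to 0.045 for Clec3b, from -0.042 to 0.11 for Dpep1 and from -0.12 to 0.024 for Dpt. The cause was not tested. At an unadjusted p under 0.05, 3 members and 1625 probes were lower on all arrays. No member was lower at that limit without pool 6 (777 probes), without pool 8 (723), with no variance trend (977) or after quantile normalization (929). Without pool 11, 2 members and 1279 probes were lower, and with RNA input as a covariate, 4 and 2026. With no replicate block, 1 member and 1617 probes were lower, the median stayed at -0.17, 9 of 9 were negative, and 0 members and 0 probes passed, as with the pairing. The adjusted p of Ackr3, Gpc3 and Thy1 ranged from 0.384 to 0.939 over the alternatives. With 5 pools, the median 95% half-width of a member's difference was 0.28 log2 units before any adjustment for the number of probes.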

Other observations

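Tissue around the vessel varied more between arrays than the adventitial genes did. The brown adipocyte list (7 of 7 markers measured, 6 lower) had list means from 3.17 to 5.75 in infrarenal and from 2.88 to 5.63 in suprarenal aorta, with pool differences from -2.11 in pool 6 to 1.53 in pool 12. Elovl3, a fatty acid elongase, differed by -1.51 ± 0.68 (SE, n = 5 pools), and Cox7a1, a respiratory subunit of muscle and brown fat, by -1.10 ± 0.50. Skeletal muscle markers (7 of 8 measured, 1 lower) differed from -2.89 in pool 12 to 3.32 in pool 11, with Myh1 at -1.08 ± 0.51 and Myh4 at 0.63 ± 1.13. For the 9 adventitial genes the list mean stayed between 4.26 and 4.72 on all 10 arrays.

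Lymphatic endothelial markers (4 of 5 measured, 3 lower) had a median difference of -0.11, with Lyve1 at -0.21 ± 0.10 and Flt4 at -0.11 ± 0.082 (SE). The 3 Schwann cell markers measured, of 6, all had negative mean differences, with S100b at -0.17 ± 0.14 and Mbp at -0.26 ± 0.27. Their list mean was lower in 3 of 5 pools. Of 4 erythroid markers only Alas2, of haem synthesis, was measured, at 0.050 ± 0.17. Of 7 lymphocyte markers 5 were lower and 2 higher, with Cd79a at -0.15 ± 0.085 and Cd3g at -0.12 ± 0.098. All 7 sympathetic neuron markers had negative mean differences, with Dbh at -0.18 ± 0.070 and Chgb, at the floor on 1 array, at -0.53 ± 0.66. Their list mean was lower in only 3 of 5 pools, with differences from -2.37 in pool 1 to 1.48 in pool 12. Blood endothelial markers went both ways, 5 lower and 5 higher, with a median difference of 0.012. The 2 of smallest p among them, Cldn5 and Cdh5, differed by -0.37 ± 0.16 and -0.34 ± 0.15. Among adipocyte markers Pparg differed by -0.40 ± 0.35 and Lipe by -0.59 ± 0.59. The kidney markers Slc34a1 and Umod differed by 0.30 ± 0.15 and 0.29 ± 0.19. None of these passed limma's test after adjustment.

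Each member's 5 infrarenal and 5 suprarenal values were examined for an array far from the other 4 with Dixon's test at 0.71. None of the 18 sets had one. The nearest were Pi16 on infrarenal array 11, at 5.65 beside 5.35 to 5.45, and Dpep1 on suprarenal array 12, at 5.59 beside 5.06 to 5.24.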
